A study of Rattus norvegicus with 17 samples.

Results

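The genes described here are 36 rat counterparts of genes that lie near human risk loci for multiple sclerosis (MS), measured in CD4+ T helper cells of rats fed different amounts of vitamin D. The 36 names were set by hand as genes near such loci, with earlier results of these data known. A name was followed where a row of the deposited table carried exactly 1 gene symbol, and the row with the highest mean over the 17 arrays stood for the gene. Of the 36 genes, 29 had such a row among 14506 genes of the series, and 25 of the 29 lay above the level filter and were tested among 10879 genes. The platform annotation used here names no row for Clec16a, Tnfaip3, Evi5, Eomes, Myb, Thada and Tagap, and Mertk, Hhex, Vcam1 and Il7 fell below the filter.

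The cells came from female Dark Agouti (DA) rats, an inbred strain that is susceptible to experimental autoimmune encephalomyelitis, the animal model of MS. All rats, also those on the regular diet, had been immunized with myelin oligodendrocyte glycoprotein (MOG), so no group shows the genes without immunization. The diet without vitamin D, at 0 IU, is called deprived and has 5 arrays. The regular diet held 2 IU and has 6 arrays, and the supplemented diet held 10 IU and has 6. They began 5 weeks before immunization and went on to the end, and the lymph nodes were taken 7 days after it. The T cells were sorted by flow cytometry, and each array held RNA of 1 sample that the labels call a biological replicate. The rats were matched for age. Their age, the amount of feed behind each IU, and any pooling of nodes of several rats are not stated in the labels. The values are log2 expression levels, and a change is a difference between the mean log2 levels of 2 diets with its standard error (SE).

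Genome-wide association studies of MS point to many loci, and most lie near genes of the immune system. Such a gene is named for its position near a variant, which does not show that it is the gene through which the locus acts. The genes followed here cover antigen presentation and costimulation (Ciita, Cd40, Cd86), cytokine signalling (Il12a, Il22ra2, Socs1), the NF-kB pathway (Nfkb1, Map3k14, Tnfaip3), signalling inside the cell (Rgs1, Plek, Rps6kb1) and lymphocyte transcription factors (Batf, Irf8, Eomes). Vitamin D acts through its receptor, a nuclear receptor that binds DNA as a partner of the retinoid X receptor. Low vitamin D is a known environmental risk factor of MS.

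Some features of the whole series bear on the values below. The spread of an array, taken as the SD over its log2 values of every transcript cluster, was 1.94 ± 0.027 (SD, n = 6) on the supplemented diet, 2.03 ± 0.022 (n = 6) on the regular diet and 2.05 ± 0.017 (n = 5) on the deprived diet. The supplemented arrays did not overlap the others in spread (two-sided exact permutation test, p = 0.00216 against each diet, adjusted over 3 comparisons p = 0.00325), so spread and supplementation cannot be told apart. Between the deprived and the regular diet the spread differed by 0.025 (exact p = 0.0693). The 136 pairs of arrays correlated at 0.977 to 0.995, and no 2 arrays were identical. T cell markers had mean log2 levels of 10.2 to 10.7 on all arrays. Cd4, which encodes the marker used in the sort, was at 9.95 over all arrays and lower by 0.59 on the supplemented diet than on the regular diet (change -0.59, SE 0.11, adjusted p = 0.000301). Its supplemented arrays ran from 9.01 to 9.88 with a median of 9.71, and its regular arrays from 10.09 to 10.25 with a median of 10.14.

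The first comparison sets the supplemented against the regular diet. Of the 25 tested risk locus genes 5 changed, a share of 20%, while 33.7% of all tested genes changed. Ciita, Plek and Il22ra2 were higher, where 10.8% of all genes were higher, and Rgs1 and Nfkb1 were lower, where 22.9% of all genes were lower. The median change of the 25 genes was 0.04, and that of all genes was 0.00. Rgs1 moved most among them, at 1.76-fold lower, and the other 4 changes lay between 1.15-fold and 1.24-fold. Arrays of the 2 diets did not overlap in 1 of the 25 genes, Ciita, and in 12.1% of all genes.

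**Figure D1:**
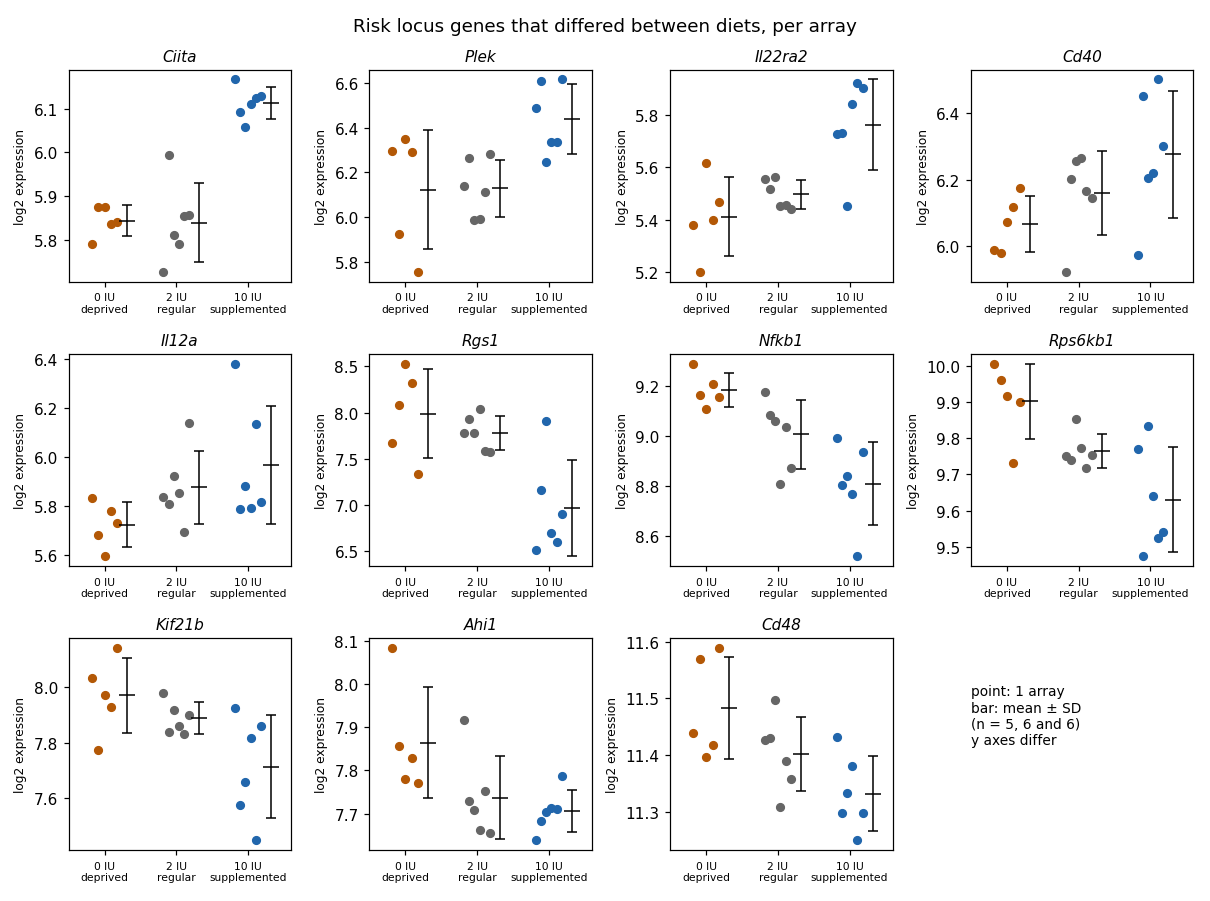
Log2 expression of the 11 risk locus genes that differed between supplemented rats and another diet, 1 panel per gene with its own y axis, 1 point per array, by diet (5 deprived, 6 regular, 6 supplemented), with the mean and SD beside the points. The 6 supplemented arrays of Ciita lie between 6.06 and 6.17, above every array of the other diets, and those of Nfkb1 lie below the deprived arrays.

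Ciita encodes the coactivator that switches on MHC class II genes, through which cells present antigen to CD4+ T cells. On the regular diet its log2 level ran from 5.73 to 5.99 with a median of 5.83. On the deprived diet it was 5.79, 5.87, 5.88, 5.84 and 5.84, and on the supplemented diet it ran from 6.06 to 6.17 with a median of 6.12. Every supplemented array was higher than every array of the other diets. The rise over the regular diet was 0.27 (SE 0.05, n = 6 and 6, 1.21-fold, adjusted p = 0.000436), and the rise over the deprived diet was also 0.27 (SE 0.06, adjusted p = 0.000496). Ciita passed in each of the 17 fits that leave out 1 array, with changes from the regular diet of 0.25 to 0.31. The signal of Ciita is low, with a mean of 5.94 over all arrays, where the lowest mean of a tested gene was 5.32.

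Rgs1, a regulator of G protein signalling that dampens the response of lymphocytes to chemokines, had log2 levels of 7.58 to 8.04 on the regular diet, with a median of 7.78. The deprived arrays were at 7.67, 8.08, 8.53, 8.32 and 7.33. The supplemented arrays ran from 6.51 to 7.91 with a median of 6.80. Supplemented replicate 3, at 7.91, lay within the range of the regular arrays, and the other 5 lay below all 6 of them. Rgs1 fell by 0.82 on the log2 scale (change -0.82, SE 0.20, n = 6 and 6, adjusted p = 0.00308) against the regular diet, and the change against the deprived diet was -1.02 (SE 0.21, adjusted p = 0.000425). Leaving out 1 array at a time gave -1.01 to -0.73 against the regular diet, and each of the 17 fits passed.

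Nfkb1 encodes the precursor of an NF-kB subunit. Its log2 level ran from 8.81 to 9.18 on the regular diet, with a median of 9.05. It was 9.29, 9.16, 9.11, 9.21 and 9.16 on the deprived diet, and 8.52 to 8.99, with a median of 8.82, on the supplemented diet. The supplemented arrays overlapped the regular arrays and lay below all 5 deprived arrays. Against the regular diet the change was -0.20 (SE 0.08, adjusted p = 0.0494), just under the threshold of 0.05, and it passed in 4 of the 17 fits without 1 array, with an adjusted p of up to 0.139. Those 4 fits left out supplemented replicate 1 or 6 or regular replicate 4 or 6. Against the deprived diet the change was -0.38 (SE 0.08, adjusted p = 0.000684), and all 17 such fits passed. After quantile normalization or cyclic loess, rescalings described below, that change did not pass.

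The start regions of 3 genes with a promoter entry are shown, since Rgs1, Nfkb1 and Rps6kb1 were lower with supplementation than with deprivation and carry a match to a motif that was searched. They come from RefSeq for GRCr8 and run 5′ to 3′ from 250 bases before the gene start to base 20 of the gene. Rgs1 lies at chr13:58573168-58573437, Nfkb1 at chr2:226805443-226805712 and Rps6kb1 at chr10:71865192-71865461, each on the minus strand. Capitals mark a half-site of the vitamin D receptor element in Rgs1 and Rps6kb1 and a match to the NF-kB consensus in Nfkb1.
Rgs1: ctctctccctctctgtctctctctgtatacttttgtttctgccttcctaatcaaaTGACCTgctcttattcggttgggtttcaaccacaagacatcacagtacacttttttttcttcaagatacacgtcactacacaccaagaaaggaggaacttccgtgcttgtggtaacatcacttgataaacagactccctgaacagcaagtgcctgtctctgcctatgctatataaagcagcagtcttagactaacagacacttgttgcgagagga
Nfkb1: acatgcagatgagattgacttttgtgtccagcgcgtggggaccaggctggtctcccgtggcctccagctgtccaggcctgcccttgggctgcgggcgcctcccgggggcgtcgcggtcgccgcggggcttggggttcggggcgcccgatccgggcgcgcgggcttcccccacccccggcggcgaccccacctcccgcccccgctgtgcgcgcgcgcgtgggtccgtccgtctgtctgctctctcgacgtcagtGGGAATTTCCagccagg
Rps6kb1: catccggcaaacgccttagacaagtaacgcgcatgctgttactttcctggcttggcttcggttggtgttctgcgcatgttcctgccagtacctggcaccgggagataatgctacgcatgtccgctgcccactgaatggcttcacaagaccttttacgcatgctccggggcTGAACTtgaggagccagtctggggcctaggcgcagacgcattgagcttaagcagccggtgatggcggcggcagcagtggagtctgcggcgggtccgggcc
The capitals begin 195 bases before the start in Rgs1, 80 bases before it in Rps6kb1 and at base 4 of the Nfkb1 transcript. The half-site was searched on both strands, as AGGTCA and as its variants with T at the third base (AGTTCA), with G at the first base (GGGTCA) or with both (GGTTCA), in the 300 bases from 250 before to 50 after each start. Of the 36 genes 26 had an entry, and 9 of the 26 (34.6%) held a half-site, against 44.4% of 33469 promoters. A full element, 2 half-sites in direct repeat with 3 bases between them, which by its make-up also counts as half-sites, was in 0 of the 26 and in 0.0986% of all promoters. The NF-kB consensus was in 8 of the 26 (30.8%), namely Tnfaip3, Hhex, Vcam1, Nfkb1, Batf, Socs1, Cd86 and Elmo1, against 7.51% of all promoters. Cd48 and Ahi1, which were also lower with supplementation than with deprivation, had an entry but no match to any motif searched. Il12a, which was higher, held a half-site that begins 28 bases before its start. A match describes letters and does not show a site, and Ciita, Plek, Il22ra2, Cd40 and Kif21b had no entry in the table of promoters.

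Plek encodes pleckstrin, a protein kinase C substrate of platelets and white blood cells. It had log2 levels of 5.99 to 6.28 on the regular diet, with a median of 6.13, of 6.29, 5.93, 6.35, 6.29 and 5.76 on the deprived diet, and of 6.25 to 6.62, with a median of 6.41, on the supplemented diet. Each of the 6 supplemented arrays lay above the regular mean, although the 2 ranges overlapped. The rise was 0.31 (SE 0.10, adjusted p = 0.0171) over the regular diet and 0.31 (SE 0.10, adjusted p = 0.0145) over the deprived diet. The first passed in each of the 17 fits without 1 array, and the second did not pass without deprived replicate 6 (adjusted p = 0.0604).

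Il22ra2 encodes the soluble decoy receptor that binds and blocks interleukin 22. Its log2 level was 5.44 to 5.56 on the regular diet, with a median of 5.49, and 5.38, 5.20, 5.62, 5.40 and 5.47 on the deprived diet. On the supplemented diet it was 5.45 to 5.92 with a median of 5.79. Supplemented replicate 3, at 5.45, lay among the regular arrays, and the other 5 lay above them. The rise was 0.27 (SE 0.08, adjusted p = 0.0107) over the regular diet and 0.35 (SE 0.08, adjusted p = 0.00129) over the deprived diet, and both passed in each of the 17 fits without 1 array. Its mean of 5.57 over all arrays lay close to the level filter.

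Scaling decided several of these calls. After quantile normalization of the deposited values 4 genes passed against the regular diet, Ciita, Zmiz1 and Elmo1 higher and Rgs1 lower, a split of 3 higher and 1 lower. After cyclic loess Cd48 joined them, for a split of 4 higher and 1 lower. With each array centred on its median, which moved the median change of all genes by -0.08 against the regular diet and by -0.10 against the deprived diet, Ciita was higher and Rgs1, Rps6kb1, Kif21b and Nfkb1 were lower, a split of 1 and 4. Of all tested genes 25.5% passed against the regular diet after quantile normalization, 24.7% after cyclic loess and 33.6% after centring. Ciita and Rgs1 passed under all of these scalings, with Ciita at 0.17 to 0.20 and Rgs1 at -0.90 to -0.78. Plek did not pass after quantile normalization (0.24, adjusted p = 0.0652), cyclic loess (0.22, adjusted p = 0.0886) or centring (0.23, adjusted p = 0.0649). Il22ra2 did not pass either (0.17, 0.16 and 0.19, with adjusted p = 0.102, 0.127 and 0.06). Nfkb1 was at -0.04 with quantile normalization (adjusted p = 0.654), and cyclic loess also gave -0.04 (adjusted p = 0.663).

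With the spread of each array as a covariate 0 of the 25 genes passed in limma (5 had an unadjusted p below 0.05), and 0 of all genes passed as well. There Ciita was at 0.23 (adjusted p = 0.384), Rgs1 at -0.92 (adjusted p = 0.409), and Nfkb1 turned to 0.16 (adjusted p = 0.627). When the 2 supplemented arrays of smallest spread, replicates 2 and 5, were left out, Ciita (0.28, adjusted p = 0.00215) and Rgs1 (-0.78, adjusted p = 0.0173) passed. Plek (0.29, adjusted p = 0.0607), Il22ra2 (0.23, adjusted p = 0.055) and Nfkb1 (-0.12, adjusted p = 0.251) did not.

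**Figure D2:**
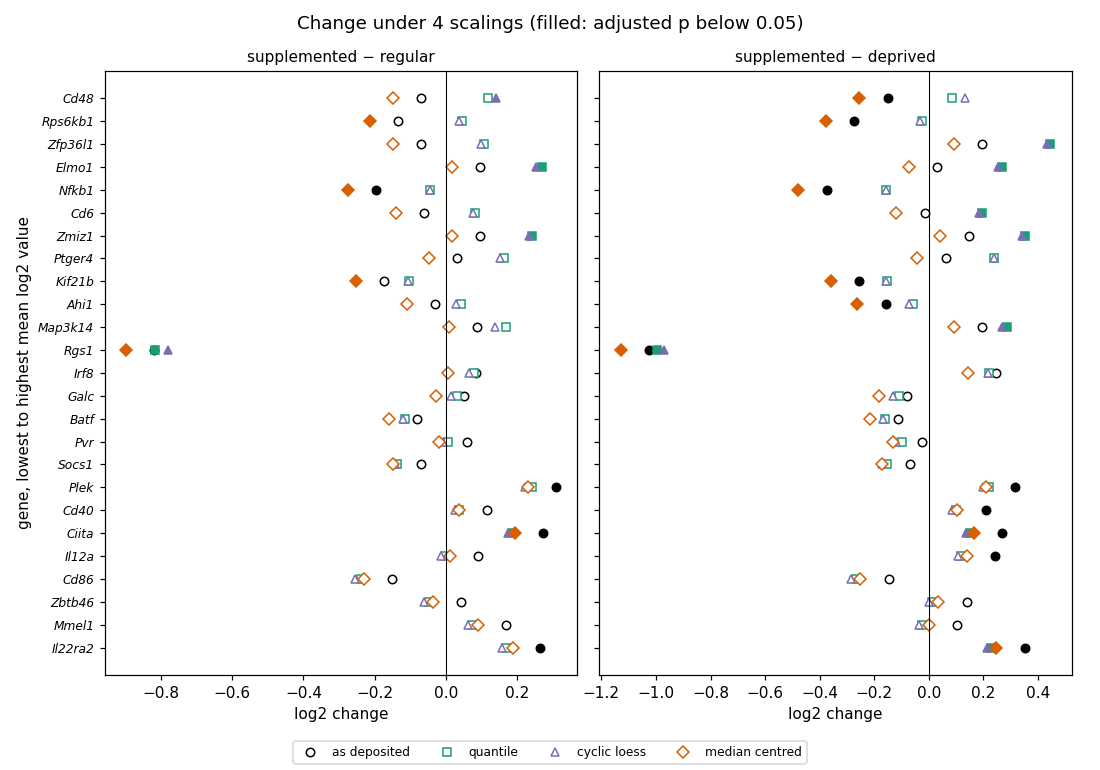
Log2 change of each of the 25 tested risk locus genes (rows, from the lowest mean log2 value at the bottom to the highest at the top) against the regular diet on the left and against the deprived diet on the right, with the values as deposited and after 3 other scalings. Filled marks have an adjusted p below 0.05; Ciita and Rgs1 are filled under all 4 scalings in both panels, and Cd48 turns from negative to positive after quantile normalization and cyclic loess.

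The changes of the risk locus genes also went with the signal of the gene on the array. All genes were split at their middle mean log2 level of 7.07. Of the 13 risk locus genes below it 3 were higher and 0 lower, with a median change of 0.08, and all genes below it had a median of 0.09. Of the 12 above it 0 were higher and 2 lower, with a median of -0.07, and all genes above it had a median of -0.14. In the deposited values the median change was thus positive for genes of low signal and negative for genes of high signal, both among the risk locus genes and among all genes. After quantile normalization the medians of the risk locus genes were 0.03 and 0.10, both positive, and those of all genes were 0.01 and -0.04.

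Markers of other cells moved with the same comparison. Of 8 tested B cell markers 6 were higher on the supplemented than on the regular diet and 0 lower, with the complement receptor Cr2 at 0.66 (SE 0.12, adjusted p = 0.000196), Fcrla at 0.40 (adjusted p = 0.00235), Ebf1 at 0.33 (adjusted p = 0.0226) and Blnk at 0.33 (adjusted p = 0.0259). Cd22, an inhibitory receptor of B cells, went the other way, at -0.49 (SE 0.21, adjusted p = 0.0704). The number higher was 3 after quantile normalization and 2 after cyclic loess or centring. The mean log2 level of the 8 markers was 6.00 to 6.37 with the regular diet, 6.08 to 6.27 with the deprived diet and 6.21 to 6.61 with the supplemented diet. The defining B cell markers Ms4a1 and Fcer2 lay below the level filter, and the annotation names no row for Cd79a, Pax5 and Bank1. Of 12 tested myeloid markers 4 were higher and 0 lower, namely Tyrobp (0.32, adjusted p = 0.00627), Spi1 (0.25, adjusted p = 0.0102), Cybb (0.43, adjusted p = 0.0251) and C1qb (0.25, adjusted p = 0.0293), and 1 was higher after each of the 3 scalings. Their mean ran from 6.08 to 6.26 on the regular, 6.15 to 6.32 on the deprived and 6.30 to 6.42 on the supplemented arrays, so that supplemented and regular arrays did not overlap. Itgam, Adgre1, S100a8, S100a9, Cd163, Clec4e and Lyn lay below the level filter.

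Of 9 tested T cell markers 5 were lower and 0 higher, with Cd3d at -0.35 (adjusted p = 9.06e-05), Lck at -0.43 (adjusted p = 0.000117) and Cd247 at -0.34 (adjusted p = 0.000624) beside Cd4. It became 1 higher and 4 lower with quantile normalization or cyclic loess, and 0 and 7 after centring. In sorted cells measured as a whole, fewer cells of a type and less RNA per cell cannot be told apart. The T cell marker means also lay above the middle level of 7.07, where all genes had a median change of -0.14. The median of the T cell markers was -0.29. The B cell and myeloid means lay below that level, where all genes had a median of 0.09, and the medians of these lists were 0.28 and 0.14. The part of this level pattern in the marker changes was not tested. With the mean of the B cell markers as a covariate Ciita (0.26, adjusted p = 0.00707), Rgs1 (-1.07, adjusted p = 0.00233) and Nfkb1 (-0.30, adjusted p = 0.0214) passed, and Plek (0.21, adjusted p = 0.182) and Il22ra2 (0.25, adjusted p = 0.06) did not. With the mean of the myeloid markers as a covariate, which does not overlap between the regular and the supplemented arrays and so cannot be told apart from supplementation there, 0 of the 25 genes passed in limma (3 had an unadjusted p below 0.05). Ciita was then at 0.24 (adjusted p = 0.0678), Rgs1 at -0.85 (adjusted p = 0.0818), and Plek, which is abundant in myeloid cells, turned to -0.01 (adjusted p = 0.956).

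**Figure D3:**
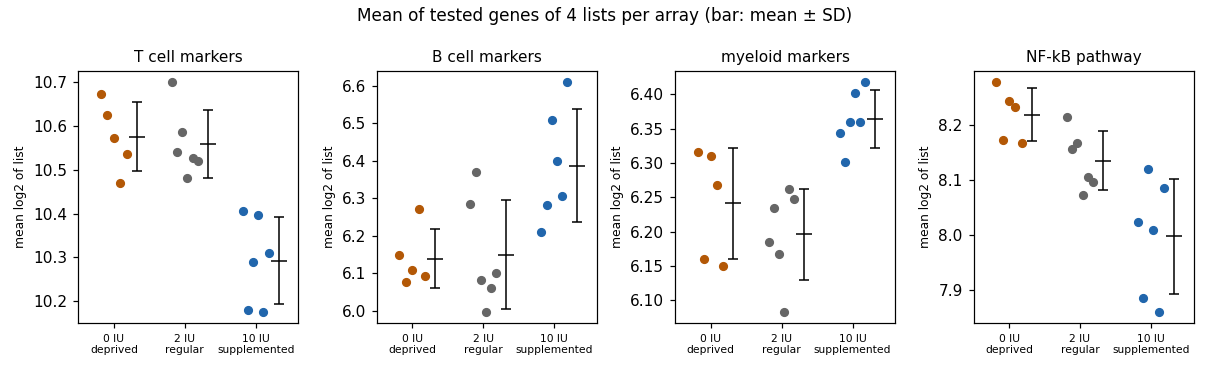
Mean log2 level per array of the tested genes of 4 lists (9 T cell markers, 8 B cell markers, 12 myeloid markers and 20 NF-kB pathway genes), 1 point per array by diet, with the mean and SD of the arrays beside the points and a y axis for each panel. The supplemented arrays lie below the regular arrays for the T cell markers (10.2 to 10.4 against 10.5 to 10.7) and above them for the myeloid markers.

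Dendritic cell markers had 0 higher and 1 lower of 7, the chemokine Ccl17 (-0.23, adjusted p = 0.0277). Of 3 plasma cell markers Sdc1 was at 0.25 (adjusted p = 0.0101) and Fkbp11 at -0.16 (adjusted p = 0.0236). Of 7 CD8 T and NK cell markers Cd8b was at -0.27 (adjusted p = 0.0311) and Ncr1 at 0.20 (adjusted p = 0.0352). Of 10 stromal and endothelial markers Pecam1 was at -0.42 (adjusted p = 0.000938) and Col1a1 at 0.19 (adjusted p = 0.0163). The changes of 9 of the 10 were positive, with a median of 0.12.

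The other genes of antigen presentation and costimulation did not pass against the regular diet. Cd40, the receptor on antigen-presenting cells that T cells engage with CD40 ligand, was at 0.12 (SE 0.08, adjusted p = 0.258). Cd86, the ligand of the costimulatory receptor CD28, was at -0.15 (SE 0.12, adjusted p = 0.33). Cd48, an adhesion molecule of lymphocytes that binds CD2, was at -0.07 (adjusted p = 0.337). Cd6, a T cell surface receptor that tunes antigen receptor signals, was at -0.06 (adjusted p = 0.478), and Pvr, a ligand of the receptors CD226 and TIGIT, was at 0.06 (adjusted p = 0.539). Of the 10 tested genes of MHC class II presentation, the targets of the Ciita protein and their helpers, 2 were higher and 1 lower, with a median of 0.10. This share of 30% stands beside 33.7% of all tested genes. RT1-DOa rose by 0.20 (adjusted p = 0.0151), RT1-Bb by 0.28 (adjusted p = 0.0229), and the lysosomal protease Ctss fell (change -0.25, adjusted p = 0.00691). RT1-DOb was at 0.09 (adjusted p = 0.245). Centring left 0 of them higher and 1 lower, and both other scalings left 0 lower.

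Among cytokine and receptor genes Il12a, which encodes a subunit of interleukin 12, was at 0.09 (adjusted p = 0.457). Socs1, an inhibitor of JAK-STAT signalling, was at -0.07 (adjusted p = 0.475). Ptger4, a receptor of prostaglandin E2, was at 0.03 (SE 0.10, adjusted p = 0.823). Il7, the survival factor of naive T cells that stromal cells make, lay below the filter with a difference of 0.01, and the gene of its receptor, Il7r, was at 0.02 (adjusted p = 0.765), but at 0.21 after quantile normalization (adjusted p = 0.0071). Map3k14, the kinase of the noncanonical NF-kB pathway, was at 0.09 (adjusted p = 0.391). It is the 1 tested risk locus gene with 2 transcript clusters, and they moved the same way, at 0.09 and 0.15, with neither passing.

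Other genes of the NF-kB pathway were read beside Nfkb1. Of 20 tested pathway genes, without Nfkb1 and Map3k14, 0 were higher, 6 lower and 14 did not pass against the regular diet. This share of 30% stands beside 33.7% of all genes. The median of -0.14 stands beside 0.00 for all genes and -0.14 for all genes above the middle level of 7.07. Some pathway genes, such as Nfkb2 and Bcl3, lay below that level. The subunit gene Rela was at -0.25 (SE 0.08, adjusted p = 0.0182), the nuclear regulator Nfkbiz at -0.36 (SE 0.12, adjusted p = 0.0215), the A20-binding protein gene Tnip1 at -0.26 (adjusted p = 0.0232) and the kinase gene Ripk1 at -0.27 (adjusted p = 0.0278). Both with quantile normalization and with cyclic loess the split was 1 higher and 1 lower, with a median of -0.09, and none of those 4 passed. After centring 0 were higher and 12 lower. Without supplemented replicates 2 and 5 the count was 0.

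Among signalling and cytoskeletal genes, Rps6kb1 encodes the kinase of ribosomal protein S6 downstream of mTOR. It was at -0.14 (SE 0.07, adjusted p = 0.116). Kif21b, a kinesin motor of neurons and lymphocytes, was at -0.17 (SE 0.08, adjusted p = 0.0837). Elmo1, an adaptor that helps to activate Rac during migration and engulfment, was at 0.10 (adjusted p = 0.261), and Ahi1, a scaffold of the primary cilium, was at -0.03 (adjusted p = 0.711). After quantile normalization Elmo1 was at 0.27 (adjusted p = 0.00173), and Rps6kb1 was at 0.04 (adjusted p = 0.572).

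The tested genes of transcription and RNA control did not pass with the values as deposited. Batf, an AP-1 factor needed by Th17 cells, was at -0.08 (adjusted p = 0.471), and Irf8, a factor of myeloid and B cells, was at 0.08 (adjusted p = 0.524). Zmiz1, a coregulator related to the PIAS proteins, was at 0.10 (adjusted p = 0.278), or 0.24 after quantile normalization (adjusted p = 0.00873), and Zbtb46, a factor of classical dendritic cells, at 0.04 (adjusted p = 0.644). Zfp36l1, which speeds the decay of mRNAs with AU-rich elements, was at -0.07 (adjusted p = 0.584). The homeobox gene Hhex differed by 0.18 below the filter. Of the remaining genes, the endopeptidase gene Mmel1 was at 0.17 (SE 0.07, adjusted p = 0.0683) and passed in 2 fits without 1 array, and Galc, the lysosomal galactosylceramidase that degrades myelin lipids, was at 0.05 (adjusted p = 0.636). The receptor tyrosine kinase Mertk and the adhesion molecule Vcam1 differed by 0.16 and 0.03 below the filter, with no test.

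For the 20 tested genes that did not pass, the 95% interval of the change lay within 0.5 on the log2 scale in either direction for all 20 and within 0.3 for 17.

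**Figure D4:**
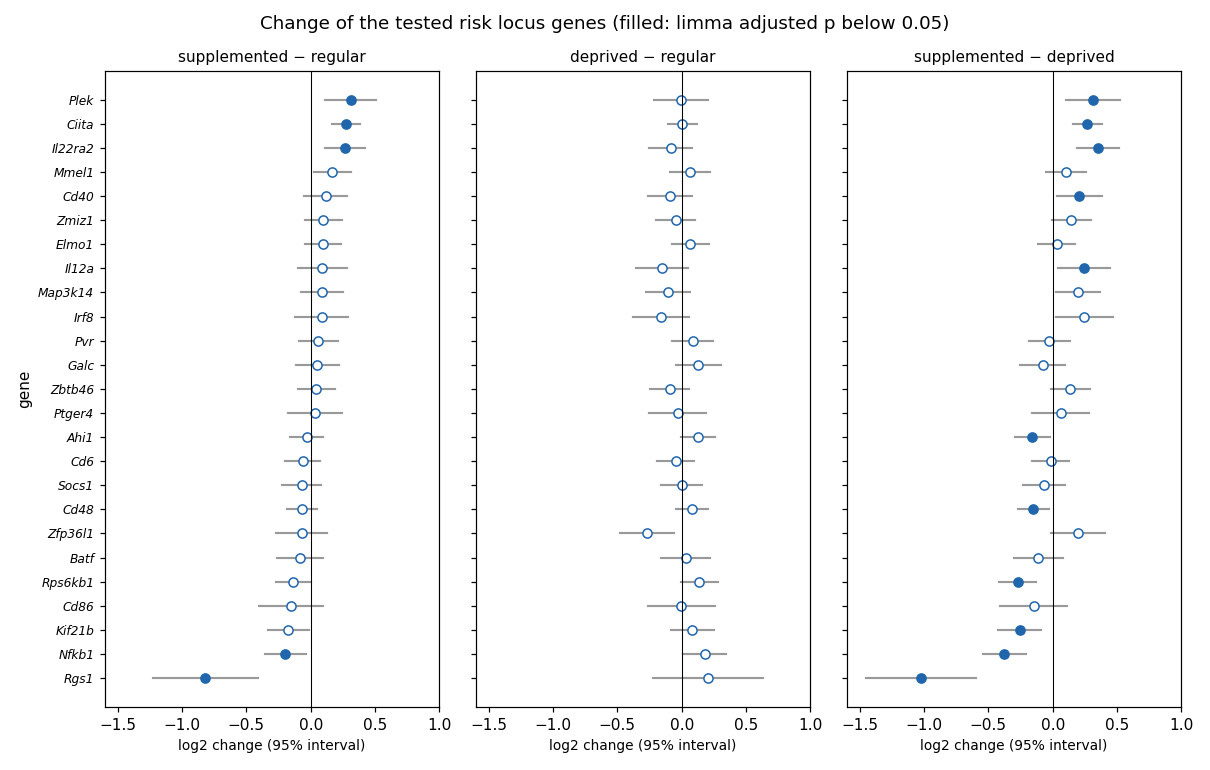
Log2 change with its 95% interval for the 25 tested risk locus genes, ordered by the change that supplementation made against the regular diet, for supplemented minus regular, deprived minus regular and supplemented minus deprived. Filled points have an adjusted p below 0.05 in limma: 5 in the first panel, 0 in the second and 11 in the third, with Rgs1 farthest to the left in the first and the third.

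Deprivation changed 0 of the 25 genes against the regular diet in limma, while 1.67% of all tested genes changed, 1.49% higher and 0.184% lower. At an unadjusted p below 0.05 there were 2 genes, Zfp36l1 and Nfkb1. The count of passing genes was 0 under each alternative that was run, where 0.303% to 8.17% of all genes passed. Zfp36l1 was at -0.27 (SE 0.10, n = 5 and 6, adjusted p = 0.181), with log2 levels of 9.60, 9.33, 9.49, 9.24 and 9.19 against 9.50 to 9.99 on the regular diet, median 9.55. Nfkb1 was at 0.18 (SE 0.08, adjusted p = 0.257). Rgs1 was at 0.21 with a wide interval of -0.22 to 0.63, and Ciita at 0.00 with an interval of -0.11 to 0.12. The arrays of the 2 diets overlapped in each of the 25 genes, and they do not overlap in 5.53% of all genes. For 24 of the 25 genes the 95% interval lay within 0.5 in either direction, Rgs1 being the exception. Of 10 stromal and endothelial markers 0 passed with deprivation, while 9 had a negative change, with a median of -0.10. Their array means were 6.34 to 6.41 on the deprived and 6.44 to 6.52 on the regular diet, which did not overlap.

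The other differences from the regular to the deprived diet ran from -0.16 to 0.14, and none of them passed. Irf8 was at -0.16, Il12a at -0.15, Map3k14 at -0.11, Zbtb46 and Cd40 at -0.09, Il22ra2 at -0.09, and Zmiz1, Cd6 and Ptger4 at -0.05, -0.05 and -0.03. Plek, Cd86 and Socs1 were at -0.01, 0.00 and 0.00. Batf was at 0.03, Mmel1 at 0.06, Elmo1 at 0.07, Cd48 and Kif21b at 0.08, Pvr at 0.09, and Galc, Ahi1 and Rps6kb1 at 0.13, 0.13 and 0.14.

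Between the extremes of the diet, 10 IU and 0 IU, 11 of the 25 genes differed (44%), where 47.2% of all tested genes differed, 18.6% higher and 28.6% lower. Cd40, Ciita, Plek, Il12a and Il22ra2 were higher with supplementation and Cd48, Rgs1, Ahi1, Rps6kb1, Kif21b and Nfkb1 lower. The arrays did not overlap for Ciita and Nfkb1, 2 of 25 genes, and do not overlap in 24.1% of all genes. This comparison shares the supplemented arrays with the first, so the same arrays give both sets of values. Marker lists moved here too: of 10 stromal and endothelial markers 6 were higher and 1 lower, with array means of 6.48 to 6.58 on the supplemented and 6.34 to 6.41 on the deprived diet, which did not overlap. Of 9 T cell markers 0 were higher and 6 lower, of 8 B cell markers 5 were higher and 1 lower (Cd22, -0.59, adjusted p = 0.0319), and of 12 myeloid markers 2 were higher and 0 lower. The part of the stromal and T cell markers in the 11 differences was not tested.

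Rps6kb1 had log2 levels of 10.01, 9.96, 9.92, 9.73 and 9.90 on the deprived diet, of 9.72 to 9.85 with a median of 9.75 on the regular diet, and of 9.47 to 9.83 with a median of 9.59 on the supplemented diet. Supplemented replicates 1 and 3 lay above the lowest deprived array, and the other 4 lay below all 5. The change from deprivation to supplementation was -0.27 (SE 0.07, n = 6 and 5, adjusted p = 0.0031), and Rps6kb1 passed in each of the 17 fits without 1 array. Quantile normalization gave -0.03 (adjusted p = 0.76), and cyclic loess -0.03 (adjusted p = 0.695).

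Kif21b was at 8.03, 7.77, 7.97, 7.93 and 8.14 on the deprived arrays, at 7.83 to 7.98 with a median of 7.88 on the regular arrays and at 7.45 to 7.93 with a median of 7.74 on the supplemented arrays. The ranges overlapped, and each of the 6 supplemented arrays lay below the deprived mean. The change was -0.26 (SE 0.08, adjusted p = 0.0132). It did not pass with quantile normalization (-0.15, adjusted p = 0.115), with cyclic loess (-0.16, adjusted p = 0.0979) or without supplemented replicates 2 and 5 (-0.15, adjusted p = 0.112).

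Cd48 was at 11.44, 11.57, 11.40, 11.42 and 11.59 on the deprived diet, at 11.31 to 11.50 with a median of 11.41 on the regular diet and at 11.25 to 11.43 with a median of 11.32 on the supplemented diet. The ranges overlapped, with every supplemented array below the deprived mean. The change of -0.15 (SE 0.06, adjusted p = 0.0399) passed in 12 of the 17 fits without 1 array, with an adjusted p of up to 0.113. It turned to 0.08 with quantile normalization (adjusted p = 0.228) and to 0.13 with cyclic loess (adjusted p = 0.0565). Il12a was at 5.83, 5.68, 5.59, 5.78 and 5.73 on the deprived diet, at 5.69 to 6.14 with a median of 5.84 on the regular diet and at 5.79 to 6.38 with a median of 5.85 on the supplemented diet. Its ranges overlapped, and the rise of 0.24 (SE 0.10, adjusted p = 0.0439) passed in 10 of the 17 fits without 1 array. It did not pass after quantile normalization (0.12, adjusted p = 0.392), cyclic loess (0.11, adjusted p = 0.444) or centring (0.14, adjusted p = 0.282).

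Cd40 rose by 0.21 (SE 0.08, adjusted p = 0.0448) from deprivation to supplementation, and Ahi1 changed by -0.16 (SE 0.06, adjusted p = 0.0489). Both lay just under the threshold, passed in 7 and 4 of the 17 fits without 1 array, and did not pass after quantile normalization (Cd40 0.10, adjusted p = 0.333, Ahi1 -0.06, adjusted p = 0.445). Map3k14 (0.20, adjusted p = 0.0538) and Irf8 (0.25, adjusted p = 0.0593) lay just above it. After quantile normalization 7 genes were higher, Cd6, Ciita, Zfp36l1, Il22ra2, Map3k14, Zmiz1 and Elmo1, and 1 was lower, Rgs1. Cyclic loess gave the same split of 7 and 1 for those genes, and centring gave 2 higher, Ciita and Il22ra2, and 6 lower. Of all tested genes 32.8% passed after quantile normalization, 32.5% after cyclic loess and 44% after centring. With the spread of each array as a covariate 0 of the 25 passed in limma (6 had an unadjusted p below 0.05), and 0 of all genes passed. Over the 3 diets, the moderated F test of limma called 7 of the 25 genes, Ciita, Rgs1, Plek, Il22ra2, Rps6kb1, Kif21b and Nfkb1, and 45.3% of all genes.

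Of the 14 genes that did not differ between the extremes, Zfp36l1 was at 0.20 (adjusted p = 0.112), Zmiz1 at 0.15 (adjusted p = 0.102), Zbtb46 at 0.14 (adjusted p = 0.121), Cd86 at -0.15 (adjusted p = 0.339), Batf at -0.11 (adjusted p = 0.311) and Mmel1 at 0.10 (adjusted p = 0.247). Cd6, Socs1, Galc, Pvr, Elmo1 and Ptger4 lay between -0.08 and 0.06. The 95% interval of each of the 14 lay within 0.5 in either direction.

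The NF-kB pathway genes had 1 higher and 11 lower of 20 in this comparison (60%), with a median of -0.21. Of all genes 47.2% differed, with a median of 0.00, and of the genes above the middle level 56.8% did, with a median of -0.19. The mean of the 20 genes was 7.86 to 8.12 on the supplemented arrays and 8.17 to 8.28 on the deprived arrays, which did not overlap. Neither did the means of the T cell markers or of the stromal and endothelial markers. Those of the B cell and the myeloid markers overlapped. After quantile normalization or cyclic loess 1 was higher and 3 lower.

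A further 32 genes near MS risk loci were read as a second list, of which 26 were tested. Against the regular diet 4 were higher and 3 lower on the supplemented diet, a share of 26.9% beside 33.7% of all genes, with a median of -0.02. The kinase gene Jak1 was at -0.31 (SE 0.06, adjusted p = 0.000573), the antigen receptor signalling gene Bcl10 at -0.34 (SE 0.07, adjusted p = 0.00119) and the transcription factor Stat3 at -0.42 (SE 0.10, adjusted p = 0.00262). Il12b, which encodes the subunit that interleukins 12 and 23 share, was at 0.29 (SE 0.08, adjusted p = 0.00804). Quantile normalization gave 7 higher and 2 lower, and the counts were 5 and 2 after cyclic loess and 1 and 8 after centring, and Jak1 missed the threshold after the first (adjusted p = 0.0899) and the second (adjusted p = 0.161).

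Genes of vitamin D metabolism and T cell cytokine receptors stand in the same list, and Vdr, which does not, is given with them. Cyp27b1, the enzyme that makes the active hormone, was at 0.16 (SE 0.05, adjusted p = 0.0235) with supplementation, and at 0.06 after quantile normalization (adjusted p = 0.302). Cyp24a1, which degrades the hormone, lay below the level filter, and Vdr, which encodes the receptor, had a change of 0.14 (SE 0.07, adjusted p = 0.12). Il2ra was at 0.06 (adjusted p = 0.551) and Tnfrsf1a at -0.12 (adjusted p = 0.195), and the annotation names no row for Tyk2. Against deprivation 1 of the 26 genes passed, Il7r, which was 0.24 higher on the deprived than on the regular diet (SE 0.06, adjusted p = 0.0491) and did not pass after quantile normalization (adjusted p = 0.106). Between supplemented and deprived diets 5 were higher and 8 lower (50%, beside 47.2% of all genes), and Il7r was at -0.22 (adjusted p = 0.00731), though at 0.01 after quantile normalization (adjusted p = 0.937).

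Genes that lie beside the risk locus genes were looked at because a locus can hold several candidates. This set was added after the values had been seen. The 3 nearest protein coding genes on each side in the RefSeq gene order of GRCr8 gave 105 distinct tested neighbours of the 36 genes. Of these 9 were higher and 20 lower against the regular diet, a share of 27.6%, 2 of 105 passed with deprivation (1.9%), and 55 passed between the extremes (52.4%). Of all tested genes 33.7%, 1.67% and 47.2% passed in these comparisons. The neighbours of the 25 tested risk locus genes alone were 75, with 5 higher and 14 lower (25.3%), 1 (1.33%) and 39 (52%). The 2 that passed with deprivation were Uchl5, near Rgs1, at 0.40 (adjusted p = 0.0289) and Zfp36l2, beside Thada, at 0.33 (adjusted p = 0.0248). Beside Ciita, Dexi was at -0.06 (adjusted p = 0.514), Tvp23a at 0.05 (adjusted p = 0.555) and the more distant Nubp1 at -0.35 (adjusted p = 0.00117). Socs1 lies in the same stretch, at -0.07, and Clec16a, between Socs1 and Dexi, has no named row. Rgs2, a relative of Rgs1 near it in gene order, was at -0.98 (SE 0.26, adjusted p = 0.00578), and Ifngr1, the interferon gamma receptor gene next to Il22ra2, was at -0.32 (SE 0.07, adjusted p = 0.00175).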

How the data were processed

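RNA of sorted CD4+ T cells was hybridised to 17 1-colour rat gene arrays, 250 ng each. The deposited values are RMA expression per transcript cluster, and the authors' processing notes name RMA and Partek 6.0. The log2 scale of the deposited values was read from their range, since no base is written. How probes were assigned, on which genome build and with which filters, is not given in these sources, and the values carry no detection call, so signal over background is unknown and the number of arrays limits the precision.

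Of 29214 transcript clusters 15310 had exactly 1 gene symbol in the platform annotation, 323 had several and 13581 were not listed. Symbols were updated by Entrez number to the RefSeq names of GRCr8, where 15279 were found. The cluster with the highest mean stood for a gene, which gave 14506 genes, and the lowest 25% by mean over all arrays were left out. limma 3.58.1 in R 4.3.3 (lmFit, eBayes) fitted the 3 diets to 10879 genes, with 14 residual degrees of freedom. Unless an alternative is named, the adjusted p of a gene comes from this fit. It was made by Benjamini-Hochberg over all tested genes of a comparison, with a threshold of 0.05. Each alternative was fitted and adjusted on its own in the same manner. Intervals are at 95%. The fit was tested on simulated data.

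The text gives every risk locus gene that had a row with its change. Array values or ranges are given for those that passed against the regular diet and for Zfp36l1. They are also given for the next 4 by adjusted p between the extremes, and so not for Cd40 and Ahi1. Up to 4 genes of each other list, those with the smallest adjusted p, are given, with further genes such as Cd22 and Il7r. The alternatives were 3 other scalings, other level filters, all clusters, other variance models, weighting of arrays, a replicate block, covariates (spread, B cell or myeloid marker mean), only the 2 diets compared, each array left out, and 2 supplemented arrays left out. The members, lists and alternatives were chosen with earlier results of these data known.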

Additional observations from a re-analysis of the deposited data

Results flagged for a closer look

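In 6 of 75 sets of arrays (25 tested genes in 3 diets) 1 array stood apart from the rest of its diet by Dixon's criterion, which chance gives in about 5 percent of sets. The lowest arrays were deprived replicate 6 for Cd86, at 5.46 with the others at 5.90 to 6.03, regular replicate 1 for Cd40, at 5.92 with the others at 6.15 to 6.26, and supplemented replicate 1 for Socs1, at 6.10 with the others at 6.40 to 6.48. The highest were deprived replicate 2 for Ahi1, at 8.08 with the others at 7.77 to 7.86, regular replicate 1 for Ahi1, at 7.92 with the others at 7.66 to 7.75, and supplemented replicate 5 for Zbtb46, at 6.05 with the others at 5.74 to 5.84.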

How the results depend on the processing

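Of the 25 tested risk locus genes, 5 passed between supplemented and regular diets, 11 between supplemented and deprived diets, and 7 in the F test over the diets. With the lowest 50% of genes left out, which kept 16 of the 25, these counts were 2, 6 and 4. With the array spread as a covariate they were 0, 0 and 0 in limma, where 5 and 6 members had an unadjusted p below 0.05 in the first 2 comparisons. With the B cell marker mean as a covariate 3 passed against the regular diet and 4 in the F test, and with the myeloid marker mean 0 (3 unadjusted), 7 and 3. Fitting only the 2 diets compared gave 7 between the extremes. Leaving out supplemented replicates 2 and 5 gave 2, 7 and 4. Leaving out 1 array at a time gave 4 to 6, 7 to 12 and 6 to 8, the 7 without deprived replicate 3. Between deprived and regular diets the count was 0 in each alternative, where 0.303% to 8.17% of all genes passed. At an unadjusted p below 0.05 in limma there were 2 genes in the main fit and 1 to 4 in the alternatives. Of all genes kept with the lowest 50% left out, 41.7% passed against the regular diet and 52.6% between the extremes. These shares were 31.5% and 42% with the B cell covariate and 13.1% and 33.2% with the myeloid covariate. They were 20% and 33.6% without supplemented replicates 2 and 5. Fitting only the 2 extreme diets gave 43%. Leaving out 1 array at a time gave shares of 27% to 37.1% against the regular diet and of 40.9% to 50% between the extremes.

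Of the changes that passed under at least 1 of the settings compared, the following turned sign, while further small changes that passed under neither also turned, such as Cd6 against the regular diet (-0.06, and 0.08 after quantile normalization) and Rps6kb1 (-0.14 and 0.04). Between supplemented and deprived diets Cd6 was at 0.19 after quantile normalization and 0.18 after cyclic loess, and Cd48 at 0.0841 and 0.133. Against the regular diet Cd48 was at 0.14 after cyclic loess, and Plek at -0.0135 with the myeloid covariate. With the spread covariate Nfkb1 was at 0.16 against the regular diet, and against the deprived diet Cd40 was at -0.36, Cd48 at 0.0438, Ahi1 at 0.0451, Rps6kb1 at 0.0859, Kif21b at 0.17 and Nfkb1 at 0.0928. The cause was not tested. Spread itself kept its direction and its side of the threshold as an interquartile range and over the tested genes alone.

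With the replicate number as a block the counts were 5 (supplemented against regular), 0 (deprived against regular) and 9 (between the extremes), and 8 in the F test. Of all genes 33.3%, 1.33% and 49% passed in these comparisons with the block. Same-numbered arrays of different diets correlated at -0.21 to 0.19, over 0.1 in 4 of 16 pairs, and 1 of 17 arrays correlated best with its own number, so the numbers were not taken as pairs.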
